A study of Mus musculus with 9 samples.

Results

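The 6 genes described here, Gata1 to Gata6, encode the GATA transcription factors of the mouse. They were taken by name from the 21887 protein-coding genes of the reference table, each as its gene span on mm10 with 20 kb on either side, called its window here. The mark measured was H3K27me3, the trimethylation of histone H3 at lysine 27, by chromatin immunoprecipitation and sequencing of 8 libraries. The cells were lineage-negative, c-Kit-positive progenitors, stem cells included, taken without culture from the bone marrow of female mice that had received a transplant. The mice had then been given vehicle (VEH) or metformin (MET), a biguanide drug, for 1 month. The labels used here do not say what share of the cells came from the donor. All mice were C57BL/6 crossed to B6.Cg-Tg(Mx1-cre)1Cgn/J, a Cre line driven by the interferon-inducible Mx1 promoter. They were either Dnmt3a+/+ (WT) or Dnmt3afl-R878H/+ (RH), a heterozygous substitution in a DNA methyltransferase. This gave 4 groups of 2 libraries each, written WT VEH, WT MET, RH VEH and RH MET, and values per library are given in that order, number 1 before number 2.

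GATA factors bind the DNA word GATA through a pair of zinc fingers and switch on the genes of a lineage. GATA1, GATA2 and GATA3 are known from blood, where GATA2 maintains stem cells and progenitors and leads to mast cells, GATA1 directs red cells and megakaryocytes, and GATA3 directs T cells and innate lymphoid cells. GATA4, GATA5 and GATA6 are known from heart, gut, liver and other endoderm-derived tissue. H3K27me3 is placed by Polycomb repressive complex 2 and is found over developmental regulators that a cell type does not use, often over CpG-rich promoters. Expression was not measured in these files, so the text describes the mark alone. The cells were a mixture of progenitors. In such a mixture a mark on fewer cells and a weaker mark in each cell cannot be told apart.

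The authors' files list intervals of the mark for each library, and each interval has a summit with a height. Here a gene is called in a library if at least 1 bp of its span lies in an interval. Libraries held 11620 to 16879 intervals covering 79.997 to 186 Mb, with RH VEH 1 lowest in both and also lowest in median summit height (12, against 14 to 17 in the others). Heights may therefore not be comparable between libraries, and each was also given as a percentile among the summits of its own library. The number of reads is unknown, so a place without an interval may carry the mark below the caller's limit. Of the progenitor genes, Ptprc (CD45) had no interval in any library, as 60.7% of all protein-coding genes had none, and Myb had one in 1 library. Kit was called in 5 libraries and Cd34 in 6, over 3.74% and 6.61% of their spans on average. The median cover over all protein-coding genes was 0%. Of markers of other cells, the T-cell genes Cd3e and Cd3g, Ebf1 of B cells, Slc4a1 of red cells and Col1a1 and Cxcl12 of stroma were called in all 8 libraries. Cd79a of B cells, Cpa3 and Ms4a2 of mast cells, Ly6g of neutrophils and Cdh5 of endothelium were called in none. The mark at a marker gene does not count cells of that type.

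Promoter sequences are shown to set Gata1, which no library called, beside members that all libraries called. RefSeq promoters (GRCm38.p6, the assembly of mm10) were on hand for 4 of the members, Gata1, Gata2 with 2 starts, Gata3 and Gata5, and Gata4 and Gata6 are named only. Each line gives the 250 bases before the start, read toward it, with every CpG in capitals.
Gata1, chrX:7967911-7968160, minus strand: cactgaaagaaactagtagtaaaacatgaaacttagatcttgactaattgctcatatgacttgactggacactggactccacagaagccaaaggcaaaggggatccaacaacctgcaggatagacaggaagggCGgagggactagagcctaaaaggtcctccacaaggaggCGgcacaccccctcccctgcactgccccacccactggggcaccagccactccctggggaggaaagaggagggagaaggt
Gata2 second start, chr6:88198414-88198663, plus strand: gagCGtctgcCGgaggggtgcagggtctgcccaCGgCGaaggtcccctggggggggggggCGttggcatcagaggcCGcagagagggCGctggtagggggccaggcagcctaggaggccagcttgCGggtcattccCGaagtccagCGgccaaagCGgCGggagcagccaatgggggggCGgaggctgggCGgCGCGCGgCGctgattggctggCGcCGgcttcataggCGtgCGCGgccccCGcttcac
Gata3, chr2:9878601-9878850, minus strand: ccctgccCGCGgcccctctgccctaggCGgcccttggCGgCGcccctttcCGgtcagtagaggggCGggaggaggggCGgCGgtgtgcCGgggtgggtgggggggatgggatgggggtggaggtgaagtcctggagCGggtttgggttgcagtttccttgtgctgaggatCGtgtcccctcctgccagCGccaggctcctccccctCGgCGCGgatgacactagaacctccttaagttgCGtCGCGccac
Gata5, chr2:180334680-180334929, minus strand: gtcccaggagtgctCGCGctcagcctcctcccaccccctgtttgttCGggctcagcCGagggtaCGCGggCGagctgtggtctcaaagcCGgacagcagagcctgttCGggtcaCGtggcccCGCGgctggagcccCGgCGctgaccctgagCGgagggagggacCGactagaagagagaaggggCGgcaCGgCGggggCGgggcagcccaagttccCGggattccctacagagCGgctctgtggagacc
The Gata1 stretch held 2 CpG and was touched by an interval in 0 libraries. It lies within the Gata1 span. The second Gata2 start, which also lies within its gene's span, had 24 CpG in this stretch, Gata3 had 19 and Gata5 had 22. The first Gata2 start, at the lower-coordinate end of the span (chr6:88193641-88193890), had 22. All 4 of these CpG-rich stretches lay wholly inside an interval in each of the 8 libraries. Of 21263 promoters of protein-coding genes, 19.2% were touched in all 8 libraries and 67.6% in none. The median CpG count was 14 in the former, 8 in the latter and 10 over all. These are counts of letters that describe the window, not sites. The motif that GATA factors bind was searched on both strands as AGATAA or its variant AGATAG and as TGATAA or its variant TGATAG, and none was found in the 5 stretches of the members, whereas 23.6% of all promoters held at least 1.

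Gata1 was unmarked in every library, and the other 5 members were marked in every library. As background, all 8 libraries called 24.8% of the protein-coding genes and none called 60.7%. The mark lay over most of Gata2 and Gata4, over the 5′ part of Gata3 with its upstream flank, over the start and upstream flank of Gata5, and over the lower-coordinate end of Gata6. A weaker interval also lay on the 3′ side of Gata5 in all 8 libraries. Gata2, Gata3, Gata4 and Gata5 were each covered over at least 50% of the span in all 8 libraries, as were 6.56% of protein-coding genes, and Gata6 in 1 library. The blood genes Gata2 and Gata3 were thus called as often as the heart and endoderm genes, and Gata1 stood apart from both.

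**Figure D1:**
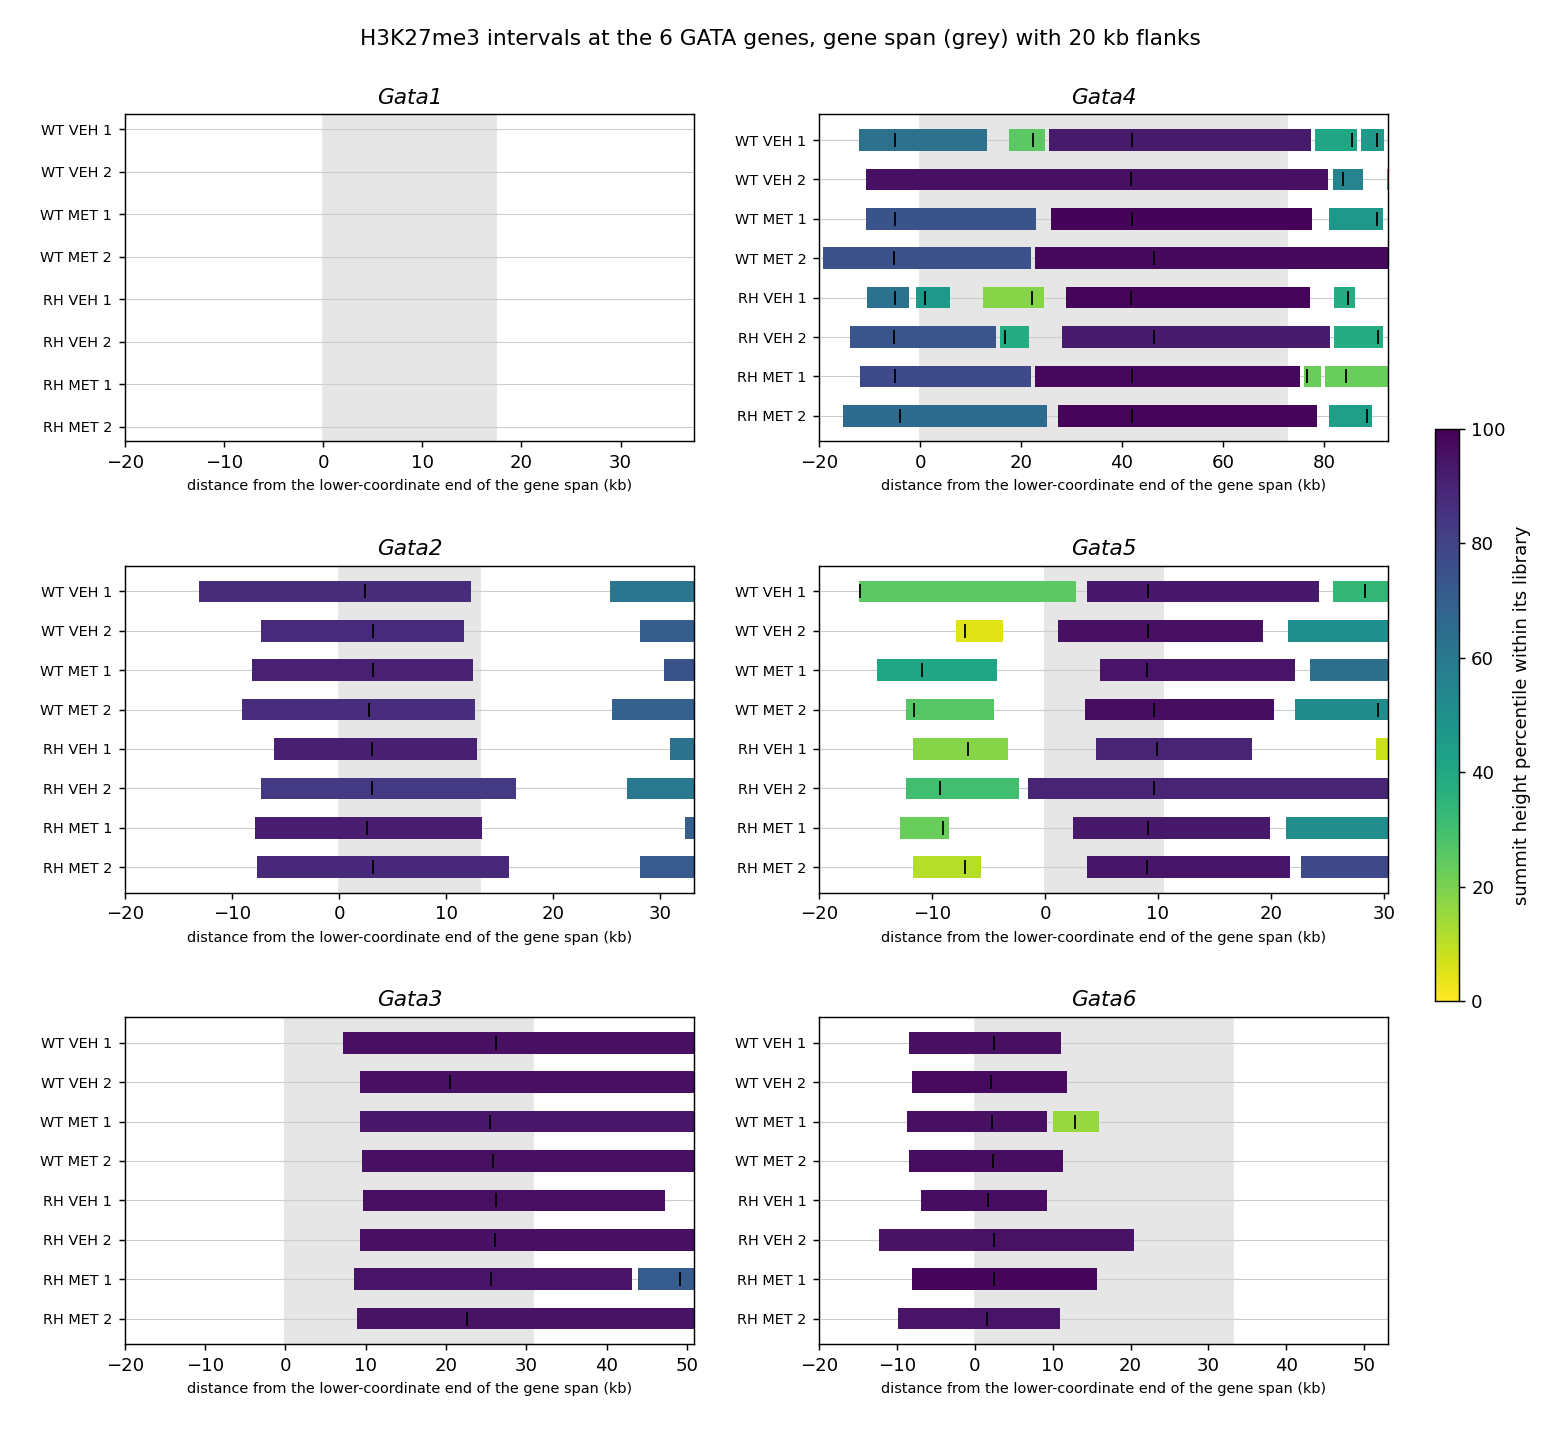
Intervals of H3K27me3 over each GATA gene in the 8 libraries. The x axis is the distance in kb from the lower-coordinate end of the gene span (grey), with 20 kb on either side; each row is a library, bars are intervals coloured by the percentile of their summit within the library, and black ticks are summits. Gata1 has no bar in any library, and each of the other genes has an interval at its summit position in all 8.

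Gata1, the red cell and megakaryocyte factor, lies at chrX:7959260-7976663. No interval touched its 17.4 kb span or its window in any of the 8 libraries, and windows without an interval made up 40.9% of all protein-coding genes. The nearest interval lay below it, at a distance of 25.1 kb in WT MET 1 to 29.3 kb in RH VEH 1 and RH MET 1. That interval began between 7916001 and 7917001 and ended between 7930000 and 7934200, reaching the lower-coordinate end of the neighbouring deacetylase gene Hdac6 in 6 of 8 libraries. Its summit was 27 to 64 high, at percentile 84.9 to 90.0, so marked chromatin close to Gata1 was called in all libraries. On the upper side the nearest interval was 48.1 to 59.3 kb away in 6 libraries and 225 kb away in both RH VEH libraries. In those 6 libraries its summit was just 7 to 13 high, at percentile 0.160 to 40.7, and its position differed between libraries. Whether such weak intervals were missed by the caller in the RH VEH libraries was not tested. Female cells carry an inactive X chromosome, which is known for broad H3K27me3. Of the 966 X-linked genes 42% were called in no library, a smaller share than the 60.7% of all genes. Any part of X inactivation in these values was not tested. Windows without an interval were 30.3% of the X-linked genes. The lncRNA genes Gm52419 and Gm39488 overlap the window. Gm52419 was called in no library, and Gm39488, which reaches far above Gata1, was touched in 2 libraries over 1.65% and 4.01% of its length.

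Gata2, the stem cell and mast cell factor, lies at chr6:88193891-88207032 on the plus strand. Intervals covered 93.7%, 89.1%, 95.2%, 96.7%, 98.2%, 100%, 100% and 100% of its 13.1 kb span (mean 96.6% ± 3.86, SD, n = 8). The 4 RH libraries were all above the 4 WT libraries, as they were for 0.163% of 8598 genes, and the difference did not pass after adjustment (exact permutation test, adjusted p = 0.880). A single interval lay over the gene in each library, 21.8 ± 2.32 kb wide. It began 6.09 to 13.1 kb before the first start and ended between 1.43 kb short of the span's end and 3.37 kb past it. Summit heights were 44, 51, 62, 58, 33, 36, 64 and 52, at percentiles 87.7, 88.2, 90.7, 87.2, 91.1, 83.4, 91.9 and 88.8. The summit fell between the first and the second start, 1.58 to 2.34 kb before the second, in all 8 libraries. The known background is that the first start serves blood and neural cells and the second is used more widely. After a gap of 10.4 to 19.0 kb a second interval followed in the upper flank. It reached the chaperone gene Dnajb8, which was covered over 100% in 5 libraries and 0% in WT MET 1, RH VEH 1 and RH MET 1.

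Gata3, the T-cell factor that is also needed in kidney, inner ear, breast and sympathetic neurons, lies at chr2:9857078-9887953 and is read from the minus strand. Intervals covered 76.9%, 69.8%, 69.8%, 69.2%, 68.5%, 69.8%, 72.4% and 71.1% of its 30.9 kb span (mean 70.9% ± 2.70, SD, n = 8), the smallest spread of the 5 marked members. The uncovered part was the 3′ end of the gene, where the edge fell 7.12 to 9.72 kb inside the span. WT VEH 1 held the lowest value, and the other 7 libraries lay between 8.52 and 9.72 kb. The opposite edge lay 12.2 to 22.8 kb beyond the span. The 12.2 kb was that of RH MET 1, where a second interval (height 25) followed and ended 21.0 kb beyond the span. Heights were 61, 74, 73, 89, 40, 59, 75 and 68, at percentiles 95.8, 95.8, 94.1, 95.8, 96.1, 96.0, 94.9 and 95.1. The summit lay 4.01 to 4.76 kb upstream of the RefSeq start in 6 libraries, 1.05 kb upstream in RH MET 2 and 1.06 kb downstream in WT VEH 2. The upstream lncRNA genes 4930412O13Rik and 9230102O04Rik were covered over 100% in all 8 libraries.

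Gata4, the heart, liver and gut factor, lies at chr14:63198914-63271712 and has the longest span of the 6, 72.8 kb. Intervals covered 92.9%, 100%, 95.9%, 98.9%, 84.9%, 89.8%, 98.9% and 97.0% of it (mean 94.8% ± 5.25, SD, n = 8). The lowest values were those of both RH VEH libraries. In WT VEH 2 a single interval of 91.6 kb ran over the whole span, whereas 2 intervals lay over it in both WT MET and both RH MET libraries and 3 in WT VEH 1 and both RH VEH libraries. The breaks between the pieces measured 0.8 to 6.6 kb. The highest summit was 54, 74, 103, 99, 47, 51, 92 and 84 high, at percentiles 93.2, 95.8, 99.0, 97.4, 98.6, 92.6, 97.9 and 98.5, and lay 41.7 to 46.4 kb from the lower-coordinate end of the span. The mark continued over the neighbouring DNA repair gene Neil2 (49.1% to 100% covered in 8 libraries). It reached Fdft1, an enzyme gene of cholesterol synthesis, only in WT MET 2, over 5.71%. Merged over the libraries, the marked region was 120 kb long, the largest among the members.

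Gata5, known from endoderm and the endocardium of the heart, lies at chr2:180325088-180335503 on the minus strand. Intervals covered 90.4%, 89.3%, 52.8%, 66.3%, 56.7%, 100%, 75.9% and 64.4% of its 10.4 kb span (mean 74.5% ± 17.2, SD, n = 8). This was the widest spread of the members, with high and low libraries in both genotypes. It lay on the 3′ side. The edge of the interval at the start moved from 1.49 kb outside the span in RH VEH 2 to 4.91 kb inside it in WT MET 1. In WT VEH 1 this edge lay 3.71 kb inside the span. Beyond a gap of 1 kb, a second interval (height 11, percentile 25.1) covered another 2713 bp of the span there. An interval lay on this 3′ side in all 8 libraries, at percentile 4.69 to 41.0, and entered the span in WT VEH 1 only. The summit stayed within 0.566 kb of the RefSeq start in all 8 libraries, with heights of 55, 74, 76, 93, 32, 46, 70 and 66 at percentiles 93.6, 95.8, 94.9, 96.5, 90.2, 90.0, 93.6 and 94.5. Both RH VEH libraries had the lowest percentiles. The antisense lncRNA gene Gata5os was covered over 100% in all 8 libraries and Gm52543, further upstream of Gata5, over 69.3% to 100%.

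Gata6, known from heart, gut, lung and primitive endoderm, lies at chr18:11052510-11085636. Intervals covered 33.5%, 35.9%, 45.6%, 34.1%, 28.0%, 61.9%, 47.4% and 32.9% of its 33.1 kb span (mean 39.9% ± 11.02, SD, n = 8). RH VEH 2 was the only library above 50%. The interval that covered most of the span began 6.91 to 12.3 kb before the lower-coordinate end and stopped 12.6 to 23.8 kb short of the upper end. In WT MET 1 a second interval of 5.8 kb (height 11, percentile 15.4) also lay in the span and ended 17.2 kb short. The width of the interval covering most of the span, 21.4 ± 5.11 kb, was close to that at Gata2 (mean difference 0.425 ± 4.59 kb, wider at Gata2 in 5 of 8 libraries). Over spans of 33.1 and 13.1 kb, intervals of like width gave 39.9% and 96.6%. Heights of 61, 80, 80, 95, 41, 56, 94 and 67 stood at percentiles 95.8, 96.9, 95.9, 96.8, 96.6, 95.0, 98.1 and 94.8, and the summit lay 1.60 to 2.50 kb inside the lower-coordinate end. Gata6os, the lncRNA gene beside that end, was covered over 66.2% to 100%.

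**Figure D2:**
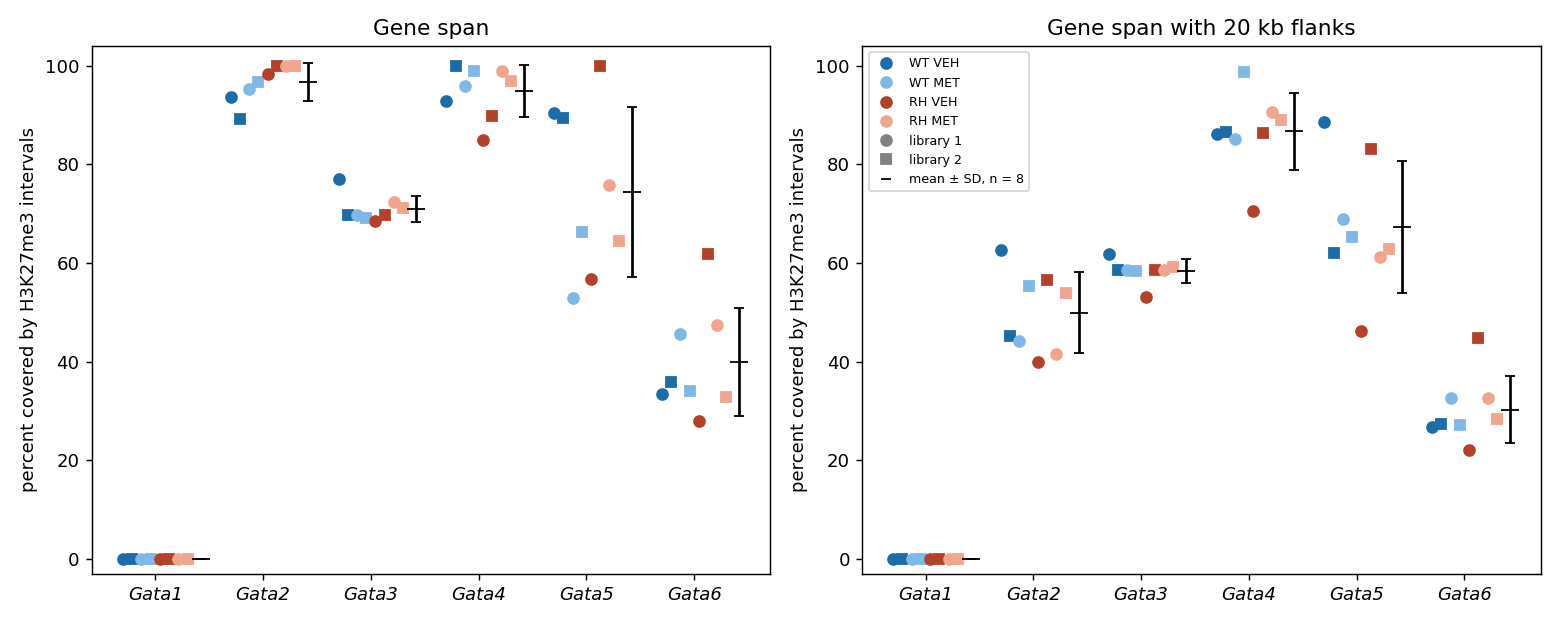
Percent of the gene span (left) and of the span with 20 kb flanks (right) covered by intervals, for each GATA gene and library. Points are libraries coloured by group, and the bar beside them is the mean ± SD of 8 libraries. Gata1 is at 0 throughout, and on the left Gata2 and Gata4 average 96.6% and 94.8% against 39.9% for Gata6.

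**Figure D3:**
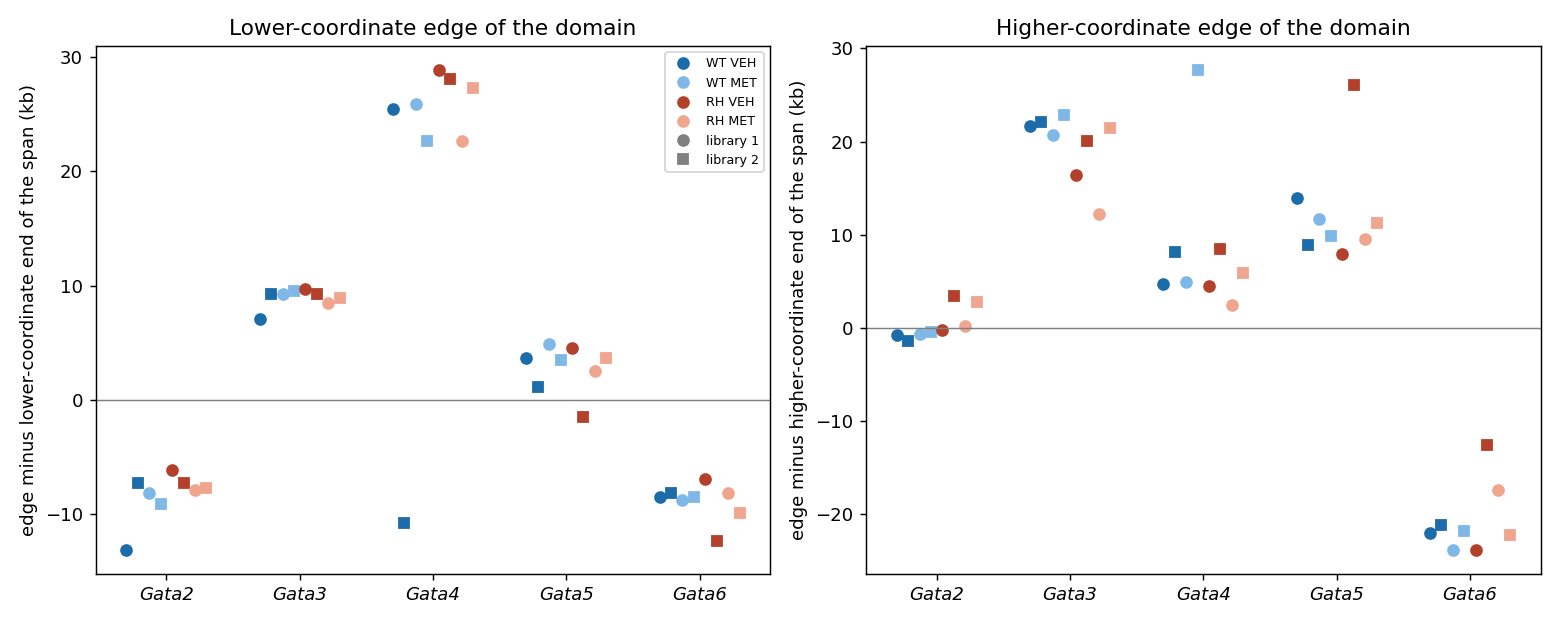
Edges of the interval that covers most of each marked GATA gene, as distance in kb from the lower-coordinate end (left) and the higher-coordinate end (right) of the gene span; each point is a library and 0 is the end of the span. At Gata2 the 4 WT libraries end 0.432 to 1.43 kb before the span does, and the 4 RH libraries from 0.232 kb before it to 3.37 kb past it.

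The subfamilies were then set side by side, Gata2 and Gata3 against Gata4, Gata5 and Gata6. These are descriptions without a test, since the genes were chosen with earlier results of these data known and genes are not replicates. The sign depended on what the cover was measured over. Over the gene span, the heart and endoderm genes averaged 69.7% and the blood genes 83.8%, a difference of -14.1 ± 8.43 percentage points (SD, n = 8 libraries) that was below 0 in 8 of 8 libraries. Over the windows the averages were 61.4% and 54.1%, a difference of 7.27 ± 4.61 that was above 0 in 7 of 8 libraries, with -0.188 in RH VEH 1. With 50 kb flanks the difference was 13.6. Both differences moved when single genes were left out, which was done after their values were seen. Without Gata6 the span difference was 0.846 ± 9.38, above 0 in 4 of 8 libraries, and without Gata2 it was -1.23 ± 8.07, while without Gata4 the window difference was -5.36 ± 6.29, below 0 in 7 of 8. Gata6 was lowest on both measures among the marked members (39.9% and 30.2% ± 6.79), and Gata4 had the most covered window (86.7% ± 7.82). The windows of Gata2, Gata3 and Gata5 were covered over 49.9% ± 8.24, 58.4% ± 2.41 and 67.3% ± 13.3. The order of interval widths mixed the subfamilies: width was 41.6 ± 3.66 kb at Gata3 and 59.9 ± 15.8 kb at Gata4, but 20.0 ± 7.51 kb at Gata5 beside the 21.8 kb of Gata2 and the 21.4 kb of Gata6.

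Summit strength gave 1 sign on both scales, which are not independent, since the percentile ranks the same heights within a library. The heart and endoderm genes stood 3.45 ± 1.22 percentile points higher than Gata2 and Gata3 (95.5 against 92.04) and 11.7 ± 7.29 higher in height (70.4 against 58.7), above 0 in 8 of 8 libraries by either scale. Within the blood pair the values lay apart. Gata2 had the lowest percentile of the 5 marked members in 7 of 8 libraries (Gata5 had it in RH VEH 1) and a mean of 88.6 ± 2.71. Gata3 stood at 95.5 ± 0.690, within the range of Gata4 (96.6 ± 2.51), Gata5 (93.6 ± 2.39) and Gata6 (96.2 ± 1.10). That mean equals the 95.5 of the heart and endoderm genes to the decimal printed, so the mean percentile difference between the subfamilies lay at Gata2. All 5 members were above percentile 80 in all 8 libraries, which 9.83% of protein-coding genes were.

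**Figure D4:**
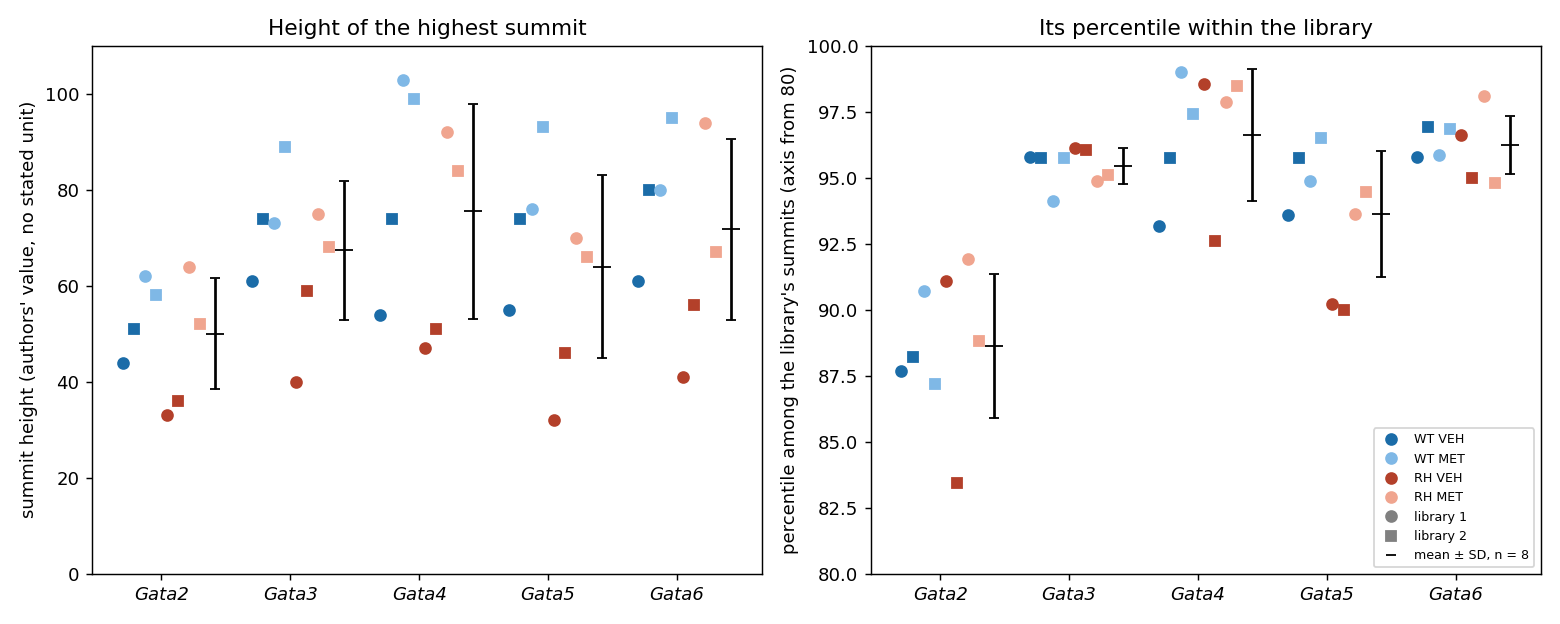
Height of the highest summit (left, the authors' value without a unit) and its percentile among all summits of the library (right, axis from 80) at the 5 marked GATA genes. Points are libraries coloured by group, and bars give the mean ± SD of 8 libraries. Gata2 lies lowest on the right, at 83.4 to 91.9, and Gata3 lies within 94.1 to 96.1.

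The R878H allele was compared with wild type, 4 libraries against 4, to ask whether mutant progenitors carry the mark differently at these genes. No member passed the test in its window. The cover of the Gata2 window was 48.0% ± 8.46 in RH and 51.8% ± 8.77 in WT, a difference of -3.86 points (SE 6.09, exact permutation p = 0.514, adjusted p = 0.896), and the groups overlapped. For Gata3, Gata4 and Gata5 the differences were -1.96, -4.98 and -7.83 points and for Gata6 3.56, with adjusted p from 0.838 to 0.931 by the exact permutation test. These sizes moved with single libraries left out: without RH VEH 1 the Gata4 difference was -0.453, and without WT VEH 1 that of Gata2 was -0.282 and that of Gata5 -2.02. Over all 12937 genes with an interval in the window of at least 1 library, 0 passed at an adjusted p of 0.05, 649 (5.02%) had an unadjusted p under it, and the median difference was -2.07 points. Of these genes 4.8% were lower in all 4 RH libraries without overlap and 0.216% were higher. The 5 marked members were in neither set.

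Gata2 did separate the genotypes on the gene span alone, an alternative measure. Its cover was 98.2% to 100% in RH and 89.1% to 96.7% in WT, 5.89 points higher in RH (SE 1.70). The exact permutation p was 0.0286, the smallest that 4 against 4 can give, and the adjusted p over 8598 genes was 0.880. Of those genes, 14 (0.163%) were higher in all 4 RH libraries on this measure and 265 (3.08%) lower. The difference lay at the 3′ edge of the Gata2 interval, which ended at 88205600 to 88206600 in WT and at 88206800 to 88210400 in RH. The nearest libraries of the 2 genotypes were thus 200 bp apart, a single step of the grid on which interval edges lie. The 5′ edge overlapped between genotypes. Summit percentiles overlapped between genotypes at all 5 marked members, whereas 2.39% of the tested genes were lower in RH without overlap and 0.317% higher. The largest difference was at Gata5 (92.1 in RH and 95.2 in WT, -3.11 points, SE 1.31, exact permutation p = 0.0857, adjusted p = 0.993).

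Metformin was compared with vehicle in the same way, to ask whether the drug moved the mark at these genes. No member passed. The Gata4 window was covered over 90.9% ± 5.72 in MET and 82.5% ± 7.93 in VEH libraries, a difference of 8.40 points (SE 4.89, exact permutation p = 0.114, adjusted p = 1). For Gata2, Gata3, Gata5 and Gata6 the differences were -2.35, 0.689, -5.45 and -0.137 points, and all groups overlapped. The Gata5 value was -19.3 on the span alone and -12.4 when all libraries were held to the same number of intervals, and the Gata4 value was 15.9 with a minimum summit height of 15. Across all tested genes the median difference was 0.940 points, 0 genes passed, 174 (1.34%) had an unadjusted p under 0.05, and 1.3% were higher and 0.0464% lower without overlap in MET.

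Summit height moved upward under metformin at many genes. Gata2 heights were 52 to 64 in MET and 33 to 51 in VEH libraries, and Gata4 heights were 84 to 103 and 47 to 74, so that neither gene's groups overlapped. Among the tested genes 12.8% did the same in this direction and 0% in the other, and the library medians of height were 15 to 17 in MET against 12 to 15 in VEH. Heights were given no test. As percentiles, Gata2 was at 89.7 in MET and 87.6 in VEH and Gata4 at 98.2 and 95.0, with overlapping groups (exact permutation p = 0.343 and 0.114, adjusted p = 0.704 and 0.527). Gata3 went the other way: its percentile was 94.1 to 95.8 in MET and 95.8 to 96.1 in VEH, a difference of -0.968 points (SE 0.349, exact permutation p = 0.0286, adjusted p = 0.446). The highest MET and the lowest VEH value of Gata3 agree to the decimal printed. Its raw height was higher in MET (76.3 ± 9.00 against 58.5 ± 14.0). Of the tested genes 0.0928% were lower in percentile without overlap and 6.32% higher, 0 passed and 6.41% had an unadjusted p under 0.05, around a median difference of 4.06 points. With 2 libraries a group, the exact test of metformin within a genotype cannot go below p = 0.333, so those groups are given as values only in the plots.

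The other genes of the GATA pathway were read from lists of partners and targets. Of the partners of the heart and endoderm factors, 14 of 15 had an interval in all 8 libraries, against 24.8% of all genes, and the median gene was covered over 99.1% of its span. Nkx2-5, the heart homeobox factor, was covered over 100% in every library and Tbx5, of heart and forelimb, over 72.0% to 84.4%. Zfpm2 (FOG2), the cofactor of GATA4, was called in all 8 over just 0.708% of its long span, and Tbx20 over 16.3%. Of the partners in blood, 3 of 15 (20%; Tal1, Fli1 and Erg) were called in all 8, near the 24.8% of all genes, 6 in some and 6 in none, where 60.7% of all genes were. Their median cover was 3.07%, against 0% over all genes. Zfpm1 (FOG1), the cofactor of GATA1, was called in 6 libraries over 9.88% on average. Tal1, which binds beside GATA1 and GATA2, was covered over 52.0% to 92.5%, whereas Lmo2, its bridging partner, had no interval, and Ldb1 had one in 3 libraries.

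GATA3 has partners in lymphoid cells and in other tissues. In T cells, 4 of 10 were called in all 8 libraries (Tcf7, Bcl11b, Rora and Ets1), against 24.8% of all genes, and 3 in none, against 60.7%, with a median cover of 4.64%. Tcf7 was covered over 31.0% ± 11.03 and Bcl11b over 36.3% ± 5.05 (SD, n = 8). In kidney, ear, breast and sympathetic neurons 8 of 8 were called in all libraries, with a median of 98.8%. Pax2, a regulator of kidney and ear, was covered over 98.1% on average, Pax8 over 40.9% and Eya1 over 3.87%.

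Targets are genes that the factors switch on in their lineages. The shares called in all 8 libraries, 12.5% of the heart and endoderm targets and 18.2% of the blood targets, stand beside 24.8% of all genes, and nothing particular to the targets is read from them. Of the 8 heart and endoderm targets, 1 was called in all 8 libraries, Tnnt2 (78.5% ± 18.9). Nppa, the atrial natriuretic peptide gene, had no interval, and Nppb and Myh6 were called in 5 and 4 libraries. Of 11 matched blood targets, 2 were called in all 8, the red cell anion exchanger gene Slc4a1 (99.0% ± 1.94) and the platelet integrin gene Itga2b (34.5% ± 12.9). Epor, the erythropoietin receptor gene, was called in 6 libraries and ranged from 0% to 100%, and Alas2 of haem synthesis was called in 7. Of 5 other genes with GATA-type zinc fingers, Trps1 was called in all 8 over 1.37% of its span, and Zglp1, Gatad1, Gatad2a and Gatad2b in none. No list gene passed the tests of genotype or metformin after adjustment. Without overlap between groups in the window, Ldb1 was higher in MET, as 1.3% of the tested genes were. Il4 and Bcl11b were among those lower in RH, as 4.8% of the tested genes were. No interval touched the Il4 span in any library, so its difference lay in the 20 kb flanks.

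**Figure D5:**
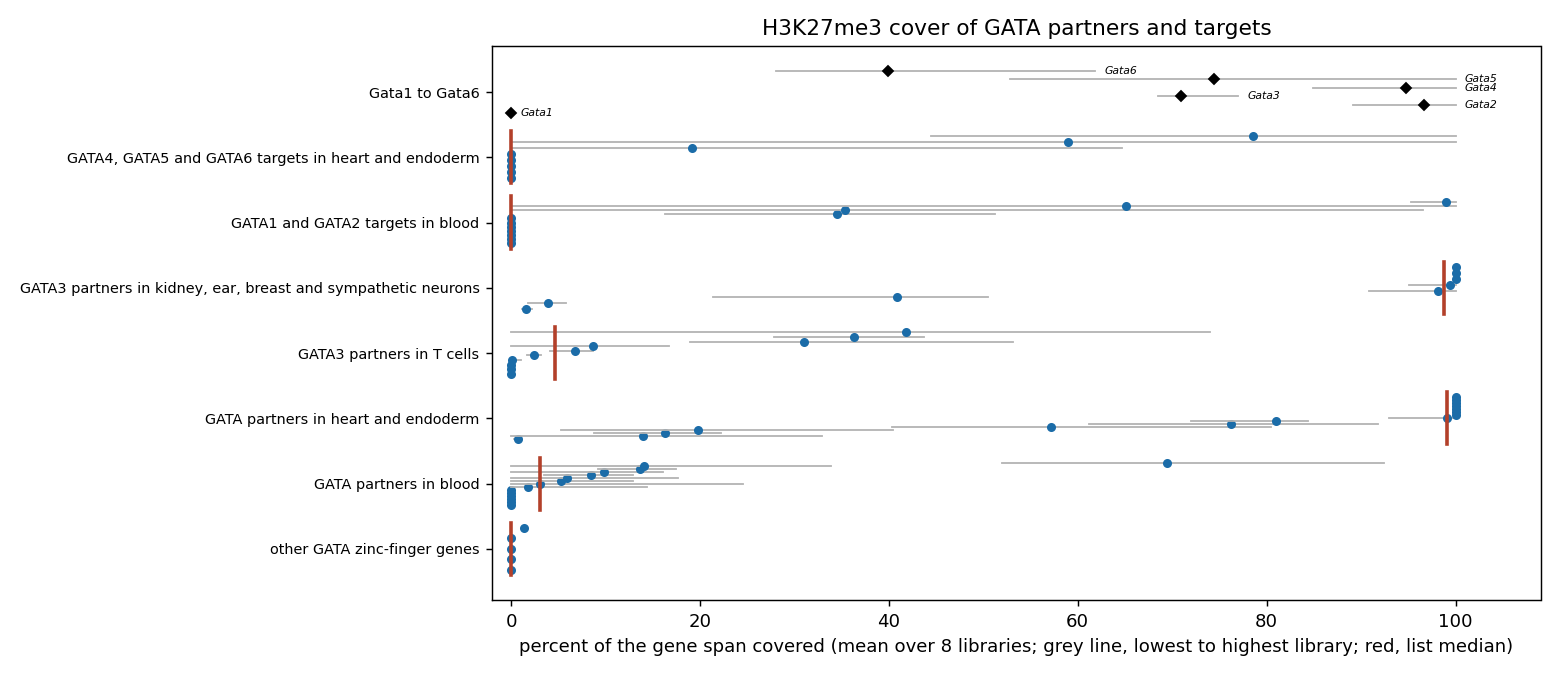
Percent of the gene span covered, averaged over 8 libraries, for the GATA genes (black diamonds) and the lists of partners and targets (blue points). Grey lines run from the lowest to the highest library, and red bars are list medians. The median is 99.1% for partners in heart and endoderm and 3.07% for partners in blood.

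Genes with the most similar cover were sought on other chromosomes, as the smallest mean absolute difference in percent of the window covered over the 8 libraries. For Gata4 these were Lrfn3, the endoderm factor gene Foxa2 and Rprml, at 2.94, 3.23 and 3.27 points. For Gata2 they were Pdrg1, Alox12b and Slfn5, at 2.60 to 3.16 points, for Gata3 Ppfia3, Etv4 and Rtbdn, at 1.12 to 1.65, for Gata5 Cchcr1, Ltbp4 and Ren1, at 4.12 to 5.55, and for Gata6 Abi3, Erbb3 and Ankrd34a, at 2.67 to 2.87. Each is a match of level that shares library and depth with its member, and of window cover alone. Over the gene span, Pdrg1 was covered over 11.8% and Alox12b over 84.7%, against 96.6% at Gata2. Cchcr1 was covered over 4.43% of its span and Ltbp4 over 82.3%, against 74.5% at Gata5. Among all protein-coding genes, 99.2% had a lower mean window cover than Gata4, 97.4% than Gata5, 95.9% than Gata3, 94.1% than Gata2 and 86.9% than Gata6.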

How the data were processed

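H3K27me3 was measured in 8 libraries of mouse bone marrow progenitors, 2 for each of 4 groups, and 1 input library was sequenced. Cells were fixed in formaldehyde, per the labels. Per the submitters' processing notes, BWA 0.7.12, bcl2fastq 2.20 and mm10 were used. How intervals were called, whether depth was adjusted and what the input served for is not given in the sources used. Per the file headers, the authors deposited for each library a list of intervals and their summits, so intervals were called per library and not on pooled replicates. The height of a summit is a score, a whole number that the authors deposited without a stated unit. Interval edges lie on a 200 bp grid, and the smallest gap between intervals was 800 bp. Read depth is unknown.

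The percent of each gene span, and of the span with 20 kb flanks, that lay in intervals was computed per library for 21887 protein-coding genes of a RefSeq table (GRCm38.p6), with Python 3.11.15, numpy 2.4.6 and pandas 2.3.3. Figures were drawn with matplotlib 3.10.9. The percentile of a summit is its mid-rank among the summits of its library. The main interval of a gene was the one that covered most of its span. Genotype (4 libraries against 4) and treatment were compared by exact permutation tests, two-sided, over 70 assignments, on window cover and on the percentile of the highest summit. P-values were adjusted by Benjamini-Hochberg over the 12937 genes with an interval in the window of at least 1 library, with a threshold of 0.05. The same test over gene spans used 8598 genes. The script was tested on simulated data. Nothing in the labels ties the libraries of a group to separate animals. The p-values therefore rest on the spread among libraries alone, and this spread may be technical.

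The members and lists were chosen with earlier results of these data known. Named genes are the 6 members, genes in their windows, the 3 genes of most similar window cover on other chromosomes, and list genes, of which the text takes up to 4 examples a list in list order, besides those whose call it counts. Of 73 list genes 72 matched the table and Hemgen did not. A few list and marker genes are counted but not reported by name here. Another 17 entries were cell type markers. Alternatives were a minimum summit height of 15, an equal number of intervals per library, intervals within 1000 bp joined, other flanks, a replicate block and leaving out each library.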

Additional observations from a re-analysis of the deposited data

Results flagged for a closer look

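Within 4 libraries that share a genotype or a treatment, 7 of the 40 sets examined had a library far from the other 3 (its gap to the nearest above the 95% critical value of Dixon's ratio). Chance alone gives about 1 in 20, and the sets overlap, so that a library can stand out more than once. RH VEH 1, which has the fewest intervals and the least covered length of all libraries, was the low library in 2 of them: the Gata3 window was covered over 53.1% there against 58.6% to 59.2% in the other RH libraries, and the Gata4 window over 70.6% against 86.2% to 86.6% in the other vehicle libraries. WT MET 2, with the most covered length, was high at the Gata4 window, 98.7% against 85.1% to 86.6% in the other WT libraries. WT VEH 1 was high at the Gata3 window, 61.7% against 58.3% to 58.6%. WT MET 1 was high at the Gata6 window, 32.5% against 26.8% to 27.3%, and low in the percentile of the highest Gata3 summit, 94.1 against 95.8 in each of the other WT libraries. The Gata6 window held 2 intervals in WT MET 1 and 1 in each of the other WT libraries. RH VEH 2 was low in the percentile of the highest Gata4 summit, 92.6 against 97.9 to 98.6 in the other RH libraries. The part of interval number and covered length in these values was not tested.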

How the results depend on the processing

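No member passed an adjusted p of 0.05 in either comparison under any alternative run. The subfamily contrast over spans, -14.1, turned to 7.27 with 20 kb flanks and 13.6 with 50 kb flanks. Flanks change both the covered length and the length it is divided by. The contrast over spans stayed below 0 with the minimum height, an equal number of intervals, joining, and each library left out. With single genes left out, an alternative chosen after seeing the data, it was -1.23 without Gata2, -26.9 without Gata3, -26.6 without Gata4, -16.4 without Gata5 and 0.846 without Gata6. For R878H minus wild type the window difference turned to 5.89 on the span alone for Gata2, to 0.496 with the minimum height for Gata5 and to -0.676 with 50 kb flanks for Gata6. For metformin it turned to 2.72 on the span alone and 1.19 with 50 kb flanks for Gata2, to -0.648 on the span alone for Gata3, to 3.97 with the minimum height and 0.362 with 50 kb flanks for Gata5, and, for Gata6, to 0.137 with joining, 0.151 on the span alone and 2.55 with 50 kb flanks. Sizes moved past 1.5 times without a turn as well. By genotype, Gata4 was -14.4 with the minimum height, -8.54 with an equal number and -3.05 with 50 kb flanks, Gata5 -0.480 and Gata3 -0.972 on the span alone, Gata2 -2.48 with 50 kb flanks and Gata6 5.54 with the minimum height or an equal number. By metformin, Gata4 was 15.9 with the minimum height and 4.85 with an equal number, Gata5 -19.3 on the span alone and -12.4 with an equal number, and Gata6 -2.12 with the minimum height or an equal number. The cause of these changes was not tested.

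Leaving out each library turned the genotype difference of the Gata6 window (-0.729 to 6.84; turned without RH VEH 2) and of the percentile at Gata2 (-0.665 to 2.17; WT MET 2, RH VEH 1 or RH MET 1), Gata3 (-0.235 to 0.398; WT MET 1 or RH VEH 1), Gata4 (-0.509 to 1.98; WT VEH 1 or RH VEH 1) and Gata6 (-0.890 to 0.220; RH VEH 2 or RH MET 2). Without a turn, the genotype window difference ran from -6.71 (without RH VEH 2) to -0.282 (WT VEH 1) at Gata2, -2.56 (RH MET 2) to -0.517 (RH VEH 1) at Gata3, -7.16 (RH MET 1) to -0.453 (RH VEH 1) at Gata4 and -14.4 (RH VEH 2) to -2.02 (WT VEH 1) at Gata5, and the metformin difference at Gata4 from 4.44 (RH VEH 1) to 10.3 (WT MET 1). Leaving out 1 library turned the metformin difference of the window at Gata2 (-6.05 to 1.47; WT VEH 1 or RH MET 1), Gata3 (-0.964 to 1.93; RH VEH 1), Gata5 (-13.4 to 0.760; WT VEH 1) and Gata6 (-2.85 to 4.72; WT MET 2, RH VEH 2 or RH MET 2), and of the percentile at Gata6 (-0.249 to 0.861; RH VEH 2 or RH MET 1). The Gata2 span difference between genotypes, examined in this way after its values were seen, stayed at 4.37 to 6.90 with adjusted p from 0.697 to 1. The genes without overlap, 649 by genotype and 174 by treatment, became 279 and 95 on the span alone. By treatment they were 108 with an equal number of intervals. With each library left out, where fewer samples make separation easier, they were 772 to 1724 by genotype (past 1.5 times the full count without WT VEH 1, WT VEH 2, WT MET 1, RH VEH 2 or RH MET 2) and 291 to 509 by treatment (past it without any of the 8).

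The same 5 members were called in all 8 libraries with the minimum height and with an equal number of intervals. Joining widened the main interval to 77.8 kb at Gata4 and 29.7 kb at Gata5.

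The replicate numbers were not taken as pairs. The differences between library 1 and library 2 correlated across groups at r = -0.0414 to 0.310 over 12937 genes, highest between WT MET and RH VEH. Such correlations cannot decide whether libraries were handled together. With the replicate number as a block, 0 genes passed in either comparison, and for the Gata2 span the exact permutation p was 0.0556 (adjusted p = 0.934).

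Limits are the unknown read depth, heights without a unit, 2 libraries a group, a 200 bp grid and a mixed cell population. Percent of a span depends on how long the span is drawn.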
